A study of Homo sapiens with 6 samples.

Results

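The heterogeneous nuclear ribonucleoproteins (hnRNPs) and a set of related RNA-binding regulators were followed at their own cassette exons, that is, exons that can be kept in or left out of the mature transcript. The members are the annotated skipped exons that lie on the same strand in 1 of 56 listed genes and that had at least 20 informative reads in the control pool and in at least 1 knockdown pool. Informative reads are reads that fit only the isoform with the exon or only the isoform without it. This gave 169 exons in 45 of the 56 genes, out of 17943 exons of the series that met the same read rule. RNA came from MDA-LM2, a human breast cancer line derived from MDA-MB-231 by selection for lung metastasis, at 48 h after siRNA transfection. The labels list 3 libraries with siSNRPA1, directed at U2 A', a protein of the U2 spliceosomal particle, 1 library with siSNRPB, directed at the SmB and SmB' proteins of the ring that spliceosomal particles share, and 2 libraries with a control siRNA (siCtrl). All cells are of the same line. The design text speaks of 3 siRNAs for SNRPA1 and 2 for SNRPB, and no label says which siRNA a library received. Each group was deposited as a single set of values, so its libraries form a pool and no value below has a replicate or a standard deviation.

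hnRNPs bind nascent transcripts and, depending on where they sit, help or block the recognition of nearby splice sites by the spliceosome. Many of them, and many other RNA-binding proteins, have alternative exons of their own, some of which change a stretch of the protein while others introduce an early stop codon and send the transcript to nonsense-mediated decay (NMD). Through such exons several of these proteins are known to adjust their own amounts. U2 A' helps to anchor the U2 particle, which recognises the branch point upstream of an exon, and the Sm ring is part of the U1, U2, U4 and U5 particles.

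Each target had few reads in its own knockdown. For SNRPA1, reads fitting an isoform came to 21.9 per 1000000 such reads in siSNRPA1, 272 in siSNRPB and 118 in siCtrl, and those of SNRPB to 337, 30.6 and 247 in the same pools. CD44, a marker of mesenchymal breast lines such as this, stood at 3432, 3540 and 3266 per 1000000, AXL at 103, 77.8 and 137, FN1 at 398, 323 and 281 and ITGB1 at 1259, 1139 and 1057, while the luminal marker ESR1 had 0.730, 1.05 and 2.75. The luminal marker GATA3 had 22.1, 17.4 and 15.3. Informative reads of the member exons numbered 184554 in siSNRPA1, 74422 in siSNRPB and 135930 in siCtrl, and the median member had 356, 134 and 257 of them. The siSNRPB pool was thus the shallowest.

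The sequences below are those of 8 wholly coding exons on which the results turn, read 5' to 3' from spliced GENCODE 29 transcripts on hg38. Capitals mark the exon, and the 15 lower-case bases on either side belong to the neighbouring exons. All 8 are multiples of 3 in length, so that where the exon is wholly coding leaving it out removes whole codons, from 13 in the shorter PCBP2 exon to 79 in PUM2. In some of its transcripts the annotated coding sequence begins within the MATR3 exon. HNRNPAB lies at chr5:178210132-178210272, the PCBP2 exons at chr12:53464760-53464852 and chr12:53467805-53467843, RBM10 at chrX:47171028-47171258 and MATR3 at chr5:139315697-139315738, all on the plus strand. PUM2 lies at chr2:20278583-20278819, HNRNPK at chr9:83973902-83973973 and RBM41 at chrX:107113397-107113468 on the minus strand.
HNRNPAB 141-nt exon: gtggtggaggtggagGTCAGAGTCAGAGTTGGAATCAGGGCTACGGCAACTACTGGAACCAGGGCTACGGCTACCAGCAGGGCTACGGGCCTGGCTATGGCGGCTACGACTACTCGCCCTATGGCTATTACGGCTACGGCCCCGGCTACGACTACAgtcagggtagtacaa
PUM2 237-nt exon: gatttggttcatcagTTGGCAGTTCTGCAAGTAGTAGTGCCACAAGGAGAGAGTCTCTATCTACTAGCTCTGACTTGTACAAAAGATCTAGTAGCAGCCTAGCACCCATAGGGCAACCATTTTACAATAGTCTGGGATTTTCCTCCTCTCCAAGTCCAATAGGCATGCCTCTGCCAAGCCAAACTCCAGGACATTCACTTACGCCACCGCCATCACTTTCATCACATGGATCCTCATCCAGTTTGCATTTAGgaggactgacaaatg
HNRNPK 72-nt exon: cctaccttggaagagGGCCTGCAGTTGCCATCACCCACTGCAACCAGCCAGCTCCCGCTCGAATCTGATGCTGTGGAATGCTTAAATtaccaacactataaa
PCBP2 93-nt exon: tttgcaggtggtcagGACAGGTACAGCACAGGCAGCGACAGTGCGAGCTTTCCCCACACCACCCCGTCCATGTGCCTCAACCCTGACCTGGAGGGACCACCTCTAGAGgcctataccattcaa
PCBP2 39-nt exon: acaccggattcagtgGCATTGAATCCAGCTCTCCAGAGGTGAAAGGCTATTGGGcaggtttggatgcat
RBM10 231-nt exon: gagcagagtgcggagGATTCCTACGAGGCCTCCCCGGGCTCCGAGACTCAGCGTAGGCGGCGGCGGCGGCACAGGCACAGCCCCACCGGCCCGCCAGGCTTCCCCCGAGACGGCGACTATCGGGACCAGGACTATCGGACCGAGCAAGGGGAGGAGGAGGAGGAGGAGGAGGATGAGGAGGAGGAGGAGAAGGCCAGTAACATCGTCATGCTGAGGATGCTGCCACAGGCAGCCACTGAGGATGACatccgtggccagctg
RBM41 72-nt exon: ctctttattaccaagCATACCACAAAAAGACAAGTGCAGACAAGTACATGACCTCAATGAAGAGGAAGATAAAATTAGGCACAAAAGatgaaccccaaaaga
MATR3 42-nt exon: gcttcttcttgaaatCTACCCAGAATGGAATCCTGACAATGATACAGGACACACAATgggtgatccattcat

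The inclusion level of an exon is the authors' estimate of the fraction of transcripts that carry it, from 0 (always skipped) to 1 (always included), given with their interval. An exon was tested in a comparison when both pools had at least 20 informative reads and the 2 together had at least 5 reads of each kind. It passed, and is said to have risen or fallen, when Fisher's exact test (two-sided) on those reads gave a Benjamini-Hochberg adjusted p under 0.05 over all tested exons of the series and the level differed by 0.1 or more, with the read shares on the same side. Because each group is a pool, the test compares the reads of 2 pools and not the conditions, and p-values and intervals cover counting error only.

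In siSNRPA1 against siCtrl, 9 of 82 tested member exons fell and 3 rose, which is 14.6% of them, against 17.0% of all 6461 tested exons of the series. Falls alone made up 11.0% of the members and 12.8% of all tested exons, and rises 3.66% and 4.18%. The median level difference was -0.01 over the members, with a range from -0.29 to 0.21, and -0.02 over all tested exons. In siSNRPB against siCtrl, 10 of 69 tested member exons fell and 2 rose, or 17.4%, against 21.3% of all 4244 tested exons. Falls made up 14.5% of the members and 16.7% of all, and rises 2.90% and 4.62%, with a median difference of -0.01 in both. The shares of passing exons among these genes were thus near or below those of the whole series in both knockdowns, and what follows describes which exons they were. Both comparisons use the same siCtrl pool. Forms of an exon with other ends count separately, in the members and in the series. The falls in each knockdown hold 2 forms of an HNRNPR exon that share exclusion reads.

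**Figure D1:**
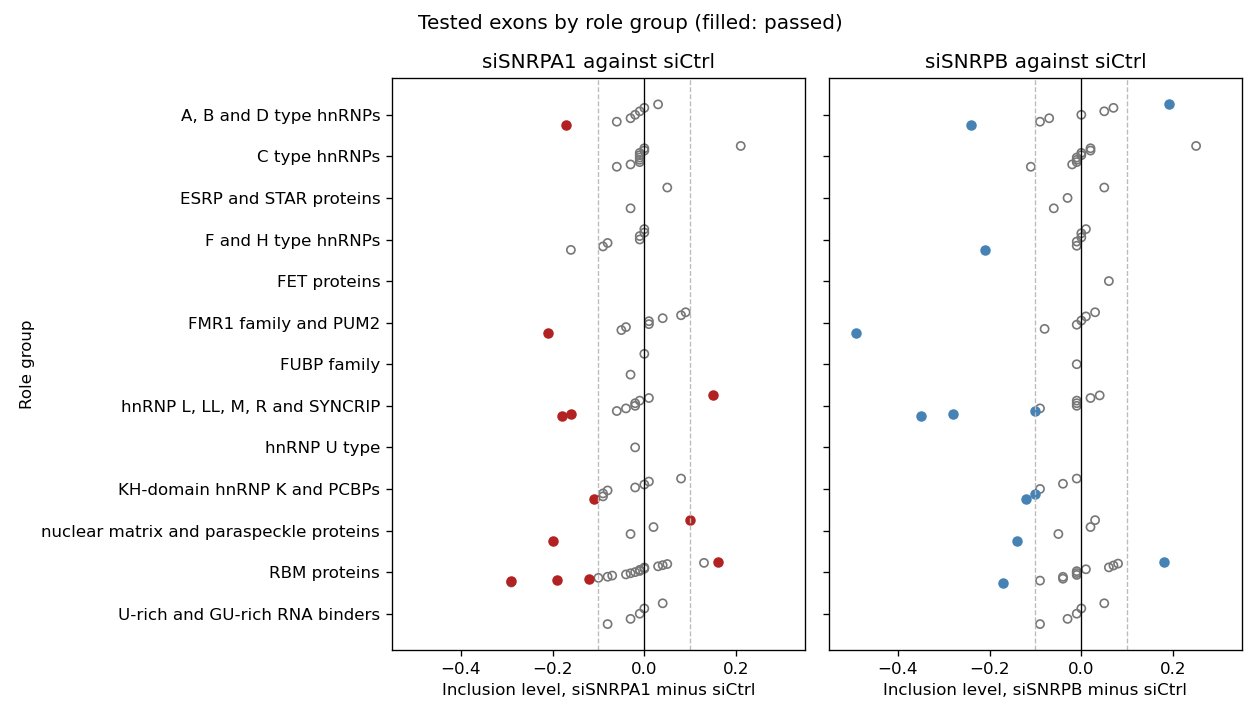
Difference in inclusion level, knockdown minus siCtrl, of every tested exon of the listed genes (x axis, no unit), by role group (y axis), for siSNRPA1 (left panel) and siSNRPB (right panel). Each point is an exon, filled where it passed, and the dashed lines mark a difference of 0.1 in either direction. Falls reach -0.29 in siSNRPA1 and -0.49 in siSNRPB.

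Among the A, B and D type hnRNPs, 1 of 7 tested exons fell in siSNRPA1 and none rose, while in siSNRPB 1 fell and 1 rose. HNRNPA1, an abundant nuclear RNA binder that often represses exon inclusion, has a 156-nt exon in its glycine-rich region that separates the longer A1B protein from the common A1. Its level was 0.30 (interval 0.27 to 0.33) in siSNRPA1, 0.46 (0.39 to 0.54) in siSNRPB and 0.27 (0.24 to 0.30) in siCtrl. Inclusion reads were 473 of 552 informative reads in siSNRPA1, 184 of 194 in siSNRPB and 334 of 387 in siCtrl. Only the siSNRPB interval stood apart from the others: the level rose by 0.19 over siCtrl (Fisher's exact test, adjusted p = 0.00723), and was 0.16 lower in siSNRPA1 than in siSNRPB (adjusted p = 0.0036, exact test). In siSNRPA1 it differed from siCtrl by 0.03 and did not pass. HNRNPA1 has many near-identical processed copies in the genome, so its read numbers are uncertain.

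HNRNPAB, a relative of HNRNPD that binds AU-rich RNA, has a 141-nt exon in its glycine-rich tail. Its level was 0.41 (0.37 to 0.45) in siSNRPA1, 0.34 (0.28 to 0.41) in siSNRPB and 0.58 (0.52 to 0.64) in siCtrl. Inclusion reads were 336 of 418, 107 of 135 and 359 of 407 informative reads in the same pools. Both knockdown intervals lay below that of siCtrl and overlapped each other. The falls were 0.17 in siSNRPA1 (exact test, adjusted p = 0.0115) and 0.24 in siSNRPB (adjusted p = 0.0402). The exon overlaps PHYKPL on the other strand, and whether reads were counted by strand was not given in the sources used here.

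The exon with most reads in this group was the constitutive 147-nt exon of HNRNPA1, which had 16510 inclusion reads in siSNRPA1, 4785 in siSNRPB and 13316 in siCtrl, with 0 exclusion reads and a level of 1.00 in each pool. The following exons of HNRNPA2B1 and HNRNPD did not pass and were chosen after their values were seen. The 36-nt exon that distinguishes B1 from A2 in HNRNPA2B1 had 240 inclusion reads of 725 informative reads in siSNRPA1 (33.1%, 95% Wilson interval 29.8 to 36.6%), 31 of 318 in siSNRPB (9.75%, 6.95 to 13.5%) and 121 of 369 in siCtrl (32.8%, 28.2 to 37.7%). Its level was 0.14, 0.05 and 0.14, so the difference of -0.09 in siSNRPB stayed just under the size required (exact test, adjusted p = 1.33e-11). HNRNPD, also known as AUF1, had a 107-nt exon of an NMD transcript with 21 inclusion reads of 426 in siSNRPA1, 3 of 152 in siSNRPB and 40 of 257 in siCtrl, at levels of 0.02, 0.01 and 0.08. Its 147-nt coding exon had inclusion shares of 56.1%, 56.4% and 67.9% in the same pools, while its level was 0.03, 0.04 and 0.04.

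No exon of the C type hnRNPs passed, out of 10 tested in either knockdown. HNRNPC forms tetramers that package long transcripts, and RALY is its close relative. The deepest exon, the 161-nt coding form of HNRNPC, had 0 exclusion reads beside 4665 inclusion reads in siCtrl, while 21 exclusion reads stood beside 6018 inclusion reads in siSNRPA1 and 13 beside 2361 in siSNRPB. Its level was 0.99, 0.99 and 1.00 in siSNRPA1, siSNRPB and siCtrl, so the read test was past its threshold (adjusted p of 0.000119 and 1.3e-05, exact tests) at a difference of -0.01. A 163-nt exon in the 5' UTR of HNRNPC, chosen after its values were seen, did not pass either. Its level was 0.51 in siSNRPA1, 0.55 in siSNRPB and 0.30 in siCtrl, but the shares of inclusion reads were 84.3%, 86.0% and 79.3% and the exact tests gave adjusted p of 0.439 and 0.384. The authors' deposited table gives it Bayes factors of 252 in siSNRPA1 and 17.7 in siSNRPB, so it passes in both with a Bayes factor of at least 10 in place of the adjusted p. HNRNPC also has near-identical copies elsewhere.

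For the F and H type hnRNPs, which bind runs of guanines, none of 7 tested exons passed in siSNRPA1 and 1 of 6 fell in siSNRPB. The largest siSNRPA1 difference of the group was at the 179-nt exon of HNRNPH1, named after its values were seen, with a level of 0.77 (0.72 to 0.81) in siSNRPA1, 0.93 in siSNRPB and 0.93 (0.89 to 0.95) in siCtrl. Its reads hardly differed, with 1678 of 1689 informative reads for inclusion in siSNRPA1, 909 of 919 in siSNRPB and 1780 of 1795 in siCtrl (exact test of siSNRPA1 against siCtrl, adjusted p = 0.7). Its siSNRPA1 Bayes factor in the authors' deposited table was nevertheless 1000000000000, the highest value among the member exons. The 50-nt exon of HNRNPH1 (chr5:179615546-179615595, minus strand) holds the stop codon of 6 annotated coding transcripts. Its level was 0.60 (0.56 to 0.64) in siSNRPA1, 0.48 (0.43 to 0.54) in siSNRPB and 0.69 (0.64 to 0.74) in siCtrl. The inclusion share was 72.0% of 633 informative reads in siSNRPA1 (95% Wilson interval 68.4 to 75.4%), 59.0% of 307 in siSNRPB (53.4 to 64.3%) and 80.7% of 481 in siCtrl (76.9 to 84.0%). The 3 shares did not overlap in their intervals, and siSNRPA1 lay between the others. In siSNRPB the exon fell by 0.21 (exact test, adjusted p = 4.54e-09). In siSNRPA1 the difference of -0.09 (adjusted p = 0.00587, exact test) was under the required size, and the siSNRPA1 level was 0.12 above that of siSNRPB (adjusted p = 0.000944, exact test). The 72-nt exon of HNRNPH1, the deepest of the group, had 4947, 2226 and 4314 inclusion reads with 0 exclusion reads in any pool.

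The K homology domain proteins HNRNPK, PCBP2 and PCBP4 bind C-rich RNA. Of 8 tested exons 1 fell in siSNRPA1, of 5 tested exons 2 fell in siSNRPB, and none rose. The median level difference of the tested exons was -0.05 in siSNRPA1 and -0.09 in siSNRPB. PCBP2 contributed 2 of the exons, in different patterns. Its 93-nt exon had a level of 0.68 (0.65 to 0.70) in siSNRPA1, 0.70 (0.67 to 0.74) in siSNRPB and 0.79 (0.77 to 0.81) in siCtrl, on 2563 of 3044, 903 of 1055 and 2510 of 2771 informative reads. Both knockdown intervals lay below siCtrl, and the fall of 0.11 passed in siSNRPA1 (exact test, adjusted p = 3.53e-11), while the difference of -0.09 in siSNRPB did not reach the size required (adjusted p = 0.000157, exact test).

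The 39-nt exon of PCBP2, further downstream, had a level of 0.42 (0.38 to 0.47) in siSNRPA1, 0.22 (0.17 to 0.28) in siSNRPB and 0.34 (0.30 to 0.40) in siCtrl. Inclusion reads were 288 of 471, 55 of 144 and 150 of 262 informative reads. Here siSNRPB was below both other pools, whose intervals overlapped. The fall in siSNRPB was 0.12 (exact test, adjusted p = 0.00175), siSNRPA1 differed from siCtrl by 0.08 with an adjusted p of 0.452 in the exact test, and siSNRPA1 stood 0.20 above siSNRPB (adjusted p = 3.74e-05, exact test). The 24-nt exon of PCBP2 was the deepest of the group, with 4140, 1574 and 2624 inclusion reads and 0 exclusion reads in every pool.

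HNRNPK, which takes part in transcription, splicing and translation, had a 72-nt exon at a level of 0.56 (0.53 to 0.60) in siSNRPA1, 0.55 (0.50 to 0.61) in siSNRPB and 0.65 (0.60 to 0.70) in siCtrl. Inclusion reads were 971 of 1134, 389 of 447 and 593 of 642 informative reads. The 2 knockdowns differed by 0.01, and each interval touched or overlapped that of siCtrl. The fall of 0.10 in siSNRPB passed (exact test, adjusted p = 0.0178) at the smallest size the rule allows, with a Bayes factor (evidence for a difference divided by evidence for none) of 2.09 in the authors' deposited table. In siSNRPA1 the difference was -0.09 (adjusted p = 0.000269, exact test) and did not pass. HNRNPK and PCBP2 have near-identical copies elsewhere, and the HNRNPK exon overlaps AL354733.3 on the other strand. The 93-nt exon of PCBP2 also lies in PCBP2-OT1, RF02271 and AC023509.1 on the same strand, so its reads cannot be given to PCBP2 with certainty.

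**Figure D2:**
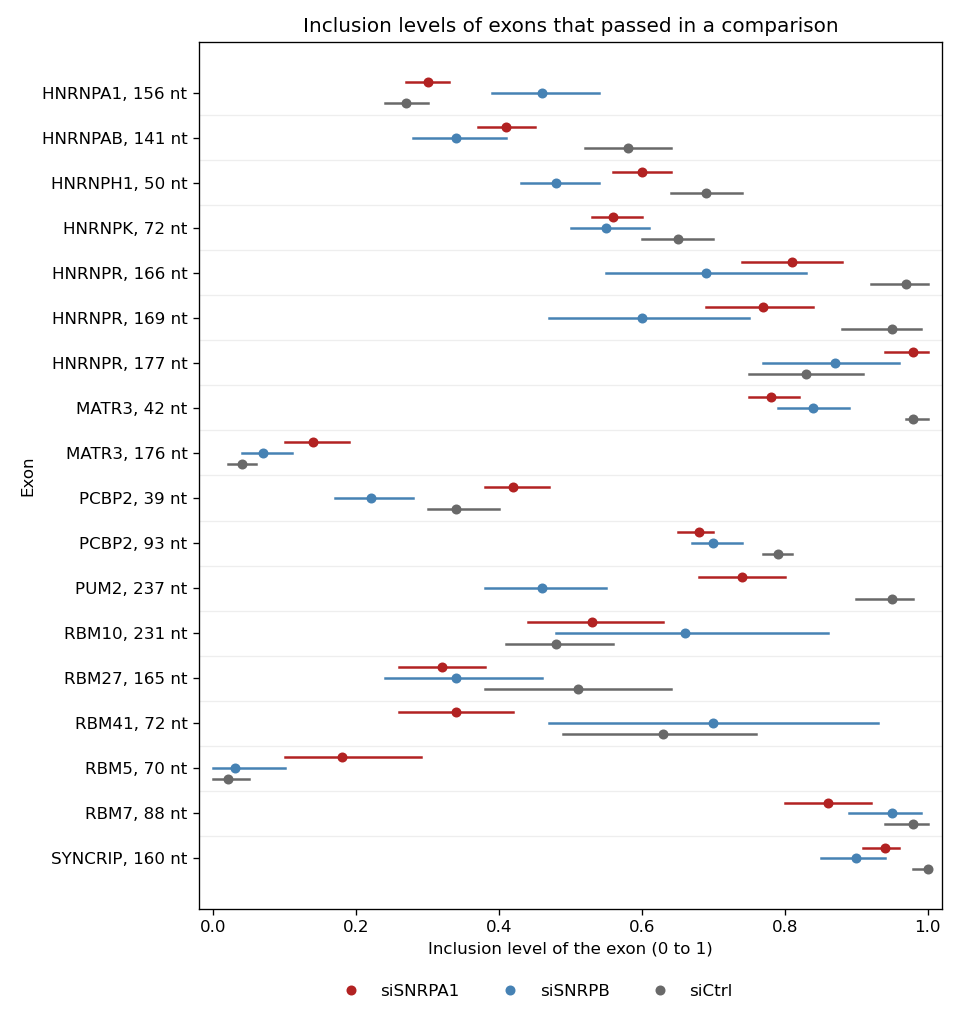
Inclusion level (x axis, 0 to 1) of the 18 exons that passed in at least 1 comparison (y axis, gene and exon length), with points for siSNRPA1, siSNRPB and siCtrl and bars for the authors' interval. The PUM2 exon has its 3 points at 0.74, 0.46 and 0.95 with no overlap of the bars, and the MATR3 42-nt exon has both knockdowns, at 0.78 and 0.84, left of siCtrl at 0.98.

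In the group of HNRNPL, HNRNPLL, HNRNPM, HNRNPR and SYNCRIP, 2 of 9 tested exons fell and 1 rose in siSNRPA1, and 3 of 9 fell in siSNRPB. The siSNRPA1 falls are 2 forms of the same HNRNPR exon, and the siSNRPB falls hold the same 2 forms. HNRNPR and SYNCRIP (also called hnRNP Q) are close relatives, and the exons that fell were in both genes those that hold the start codon. The 166-nt exon of HNRNPR (chr1:23340852-23341017, minus strand) had a level of 0.81 (0.74 to 0.88) in siSNRPA1, 0.69 (0.55 to 0.83) in siSNRPB and 0.97 (0.92 to 1.00) in siCtrl. Exclusion reads were 14 of 368 informative reads in siSNRPA1, 5 of 92 in siSNRPB and 0 of 197 in siCtrl, and the last allows an exclusion share of up to 1.52%. Both knockdowns lay below siCtrl, with falls of 0.16 in siSNRPA1 (exact test, adjusted p = 0.0152) and 0.28 in siSNRPB (adjusted p = 0.0117). A form of the same exon that is 169 nt long shares these exclusion reads and had levels of 0.77, 0.60 and 0.95 (adjusted p of 0.0165 and 0.011, exact tests).

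SYNCRIP had more reads. Its 160-nt exon (chr6:85641292-85641451, minus strand) had a level of 0.94 (0.91 to 0.96) in siSNRPA1, 0.90 (0.85 to 0.94) in siSNRPB and 1.00 (0.98 to 1.00) in siCtrl. Exclusion reads were 23 of 961, 13 of 335 and 0 of 611 informative reads, and the 0 in siCtrl allows a share of up to 0.491%. The fall in siSNRPB was 0.10 (exact test, adjusted p = 1.97e-05), while -0.06 in siSNRPA1 was under the required size (adjusted p = 0.000208, exact test).

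A second HNRNPR exon moved the other way. The 177-nt coding exon (chr1:23323556-23323732, minus strand) had a level of 0.98 (0.94 to 1.00) in siSNRPA1, 0.87 (0.77 to 0.96) in siSNRPB and 0.83 (0.75 to 0.91) in siCtrl. Exclusion reads were 0 of 749 informative reads in siSNRPA1, which allows a share of up to 0.401%, then 1 of 258 in siSNRPB and 6 of 352 in siCtrl. The rise of 0.15 in siSNRPA1 (exact test, adjusted p = 0.00652) thus rests on 6 reads. In siSNRPB the difference was 0.04 (adjusted p = 0.363, exact test).

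The deepest exon of this group, the 45-nt coding exon of HNRNPM, gave close values in all pools. HNRNPM binds GU-rich RNA and is known as a regulator of mesenchymal splicing in breast cancer cells. The level was 0.70 in siSNRPA1, 0.71 in siSNRPB and 0.72 in siCtrl, on 1763 of 2252, 854 of 1092 and 1478 of 1854 informative reads. The exact tests against siCtrl gave adjusted p of 0.403 and 0.475. An NMD exon of HNRNPL, 70 nt long and chosen after its values were seen, had 11 inclusion reads of 649 in siSNRPA1, 14 of 280 in siSNRPB and 4 of 324 in siCtrl, at levels of 0.01, 0.02 and 0.00.

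MATR3, an abundant nuclear matrix protein that binds pyrimidine-rich RNA, had 2 passing exons among the 4 tested of its group, which also holds the paraspeckle protein NONO. The 42-nt exon is wholly coding in 10 annotated transcripts, and in 7 others the annotated coding sequence begins within it. Its level was 0.78 (0.75 to 0.82) in siSNRPA1, 0.84 (0.79 to 0.89) in siSNRPB and 0.98 (0.97 to 1.00) in siCtrl. The inclusion share was 84.5% of 606 informative reads in siSNRPA1 (95% Wilson interval 81.4 to 87.2%), 88.9% of 296 in siSNRPB (84.8 to 92.0%) and 99.2% of 382 in siCtrl (97.7 to 99.7%). Both knockdowns were below siCtrl on either measure and overlapped each other. The falls were 0.20 in siSNRPA1 (exact test, adjusted p = 1.82e-15) and 0.14 in siSNRPB (adjusted p = 5.09e-08), and the knockdowns differed by -0.06 (adjusted p = 0.189, exact test).

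The other MATR3 exon, 176 nt in the 5' UTR (chr5:139278565-139278740, plus strand), had a low level in every pool. The level was 0.14 (0.10 to 0.19) in siSNRPA1, 0.07 (0.04 to 0.11) in siSNRPB and 0.04 (0.02 to 0.06) in siCtrl, on 40 of 55, 19 of 53 and 10 of 35 informative reads. The rise in siSNRPA1 was 0.10 (exact test, adjusted p = 0.00076), and the siSNRPB difference of 0.03 did not pass (adjusted p = 0.623, exact test). The exon also lies in SNHG4 on the same strand and overlaps SIL1 on the other, so its reads cannot be given to MATR3 with certainty. The 1089-nt exon of MATR3 was the deepest of the group, with 5175 of 5201, 2443 of 2465 and 4353 of 4360 informative reads for inclusion and levels of 0.96, 0.94 and 0.99.

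PUM2, a Pumilio-family protein that binds the 3' UTRs of target messages and represses them, had the largest difference among the tested members. Its 237-nt exon had a level of 0.74 (0.68 to 0.80) in siSNRPA1, 0.46 (0.38 to 0.55) in siSNRPB and 0.95 (0.90 to 0.98) in siCtrl. The inclusion share was 95.0% of 523 informative reads in siSNRPA1 (95% Wilson interval 92.8 to 96.6%), 84.8% of 158 in siSNRPB (78.4 to 89.6%) and 99.4% of 338 in siCtrl (97.9 to 99.8%). No interval overlapped another on either measure, and the order was siSNRPB, siSNRPA1, siCtrl in both. The falls were 0.21 in siSNRPA1 (exact test, adjusted p = 0.00201) and 0.49 in siSNRPB (adjusted p = 3.47e-09), and siSNRPA1 was 0.28 above siSNRPB (adjusted p = 0.000902, exact test). The read share fell by 4.38 percentage points in siSNRPA1 and fell by 14.6 percentage points in siSNRPB.

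The FMR1 family, RNA-binding regulators of translation that were grouped with PUM2, gave no passing exon. PUM2 was the 1 passing exon of 8 tested in siSNRPA1 and of 6 in siSNRPB. The deepest exon, the 94-nt coding exon of FXR1, had 1722, 892 and 1010 inclusion reads with 0 exclusion reads. A 196-nt exon of FMR1, chosen after its values were seen, had 0 exclusion reads of 1016 informative reads in siSNRPA1, 5 of 432 in siSNRPB and 17 of 653 in siCtrl, at levels of 1.00, 0.95 and 0.92, which in siSNRPA1 is a difference of 0.08 (exact test, adjusted p = 3.18e-06).

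The RBM proteins, a heterogeneous set named for their RNA recognition motifs, had 31 member exons in 9 genes, and of 19 tested in siSNRPA1 3 fell and 1 rose, while of 12 tested in siSNRPB 1 fell and 1 rose. RBM41, which binds the U12 and U6atac RNAs of the minor spliceosome, had a 72-nt exon at a level of 0.34 (0.26 to 0.42) in siSNRPA1, 0.70 (0.47 to 0.93) in siSNRPB and 0.63 (0.49 to 0.76) in siCtrl. The inclusion share was 51.1% of 94 informative reads in siSNRPA1 (95% Wilson interval 41.1 to 60.9%), 91.3% of 23 in siSNRPB (73.2 to 97.6%) and 81.0% of 63 in siCtrl (69.6 to 88.8%). The siSNRPA1 pool was below both others, which overlapped. It fell by 0.29 against siCtrl (exact test, adjusted p = 0.00165) and was 0.36 below siSNRPB (adjusted p = 0.00266, exact test). The siSNRPB value rests on 23 reads and differed from siCtrl by 0.07 (adjusted p = 0.462, exact test).

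RBM10 is a splicing factor that mostly promotes exon skipping, and its 231-nt exon separates its long and short protein variants. The level was 0.53 (0.44 to 0.63) in siSNRPA1, 0.66 (0.48 to 0.86) in siSNRPB and 0.48 (0.41 to 0.56) in siCtrl, with intervals that all overlap. Exclusion reads were 13 of 181 informative reads in siSNRPA1, 0 of 80 in siSNRPB, which allows a share of up to 3.75%, and 35 of 189 in siCtrl. The rise in siSNRPB was 0.18 (exact test, adjusted p = 2.84e-05), with a Bayes factor of 0.83 in the authors' deposited table, where a value under 1 favours no difference. In siSNRPA1 the difference of 0.05 did not pass (adjusted p = 0.00701, exact test), and siSNRPA1 was 0.13 below siSNRPB (adjusted p = 0.0436, exact test).

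RBM27, a partner of the nuclear RNA exosome, had a 165-nt coding exon (chr5:146251711-146251875, plus strand) at a level of 0.32 (0.26 to 0.38) in siSNRPA1, 0.34 (0.24 to 0.46) in siSNRPB and 0.51 (0.38 to 0.64) in siCtrl. Exclusion reads were 12 of 140 informative reads, 10 of 49 and 0 of 81, and the 0 in siCtrl allows a share of up to 3.70%. The falls of 0.19 in siSNRPA1 (exact test, adjusted p = 0.0193) and 0.17 in siSNRPB (adjusted p = 0.000283) passed, although the knockdown intervals touched or overlapped that of siCtrl. RBM7, the RNA-binding subunit of the nuclear exosome targeting complex, had an 88-nt exon (chr11:114402828-114402915, plus strand) at 0.86 (0.80 to 0.92) in siSNRPA1, 0.95 (0.89 to 0.99) in siSNRPB and 0.98 (0.94 to 1.00) in siCtrl. Its exclusion reads were 15 of 172, 1 of 60 and 0 of 102 informative reads, and the fall of 0.12 in siSNRPA1 passed (exact test, adjusted p = 0.00823). It was not tested in siSNRPB, and its length is not a multiple of 3, which no other wholly coding passing exon shows.

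RBM5, a regulator of splicing at genes of cell death, had a 70-nt exon of a non-coding transcript (chr3:50107018-50107087, plus strand) that was included in siSNRPA1. Its level was 0.18 (0.10 to 0.29) in siSNRPA1, 0.03 (0.00 to 0.10) in siSNRPB and 0.02 (0.00 to 0.05) in siCtrl. Inclusion reads were 14 of 29 informative reads in siSNRPA1, 0 of 18 in siSNRPB and 0 of 45 in siCtrl, and the zeros allow shares of up to 16.7% and 6.67%. The rise was 0.16 (exact test, adjusted p = 4.84e-06), and siSNRPB had too few reads for a test. The annotation gives this transcript as a retained intron. The deepest RBM exon, 424 nt of RBM4, had 2628, 1145 and 1967 inclusion reads and 0 exclusion reads, with reads that the similar gene RBM4B could share.

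In the remaining groups no exon passed. Of the STAR proteins, KHDRBS1 (Sam68) had a 117-nt exon with 48 exclusion reads of 2057 informative reads in siSNRPA1, 24 of 862 in siSNRPB and 17 of 1586 in siCtrl, at levels of 0.94, 0.94 and 0.97 (adjusted p of 0.0214 and 0.0103, exact tests). Among the U-rich and GU-rich RNA binders TIA1, TIAL1 and TARDBP, 5 exons were tested in each knockdown, with differences from -0.08 to 0.04 in siSNRPA1 and from -0.09 to 0.05 in siSNRPB. Read shares could differ by more: the 62-nt exon of TIAL1, chosen after its values were seen, had inclusion reads in 16 of 45 informative reads in siSNRPA1, 2 of 21 in siSNRPB and 15 of 37 in siCtrl (siSNRPB against siCtrl, exact test, adjusted p = 0.0444). The deepest of these, the 164-nt exon of TARDBP (TDP-43), had 1518, 806 and 855 inclusion reads and 0 exclusion reads. KHSRP, a KH-domain protein of RNA decay, had at its 72-nt exon 7 exclusion reads of 1853, 0 of 360 and 2 of 1248 informative reads, with a level of 0.99 in each pool.

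HNRNPUL1 had no tested exon, and the 192-nt exon that was deepest in the U type group had 4187, 1732 and 2763 inclusion reads and 0, 3 and 0 exclusion reads. None of the 4 exons of EWSR1, of the FET family, could be tested, and its deepest, a 2994-nt exon of a retained-intron transcript, had levels of 0.09, 0.14 and 0.07 with 0 exclusion reads in all pools. The 11 listed genes without a member exon were HNRNPA0, HNRNPF, HNRNPH2, HNRNPUL2, PCBP1, ELAVL1 and SFPQ, which have no annotated skipped exon in the files, and ESRP1, RBM26, FUBP1 and PSPC1, whose exons had too few reads. At the threshold of the read rule, the 102-nt exon of HNRNPLL was kept with 21 informative reads in siCtrl. The 33-nt exon of TIA1, a stress granule protein, missed it with 19, and a 63-nt exon of FUBP1 with 17. The TIA1 exon had 15 inclusion reads of 55 in siSNRPA1, 12 of 12 in siSNRPB and 18 of 19 in siCtrl, with levels of 0.21, 0.85 and 0.83. The FUBP1 exon had levels of 0.04, 0.04 and 0.07 in the same pools.

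Set against each other, the 2 knockdowns differed at 6 of 68 tested member exons, 3 lower and 3 higher in siSNRPA1, or 8.82%, against 14.7% of all 5082 tested exons. The shares lower and higher were 4.41% each for the members and 6.38% and 8.28% for all tested exons. In this comparison only the members were also required to have at least 20 informative reads in siCtrl. The 2 sets thus differ in their read rule, and the shares are not strictly alike. Higher in siSNRPA1 than in siSNRPB were PUM2, the 39-nt exon of PCBP2 and HNRNPH1. RBM41, HNRNPA1 and RBM10 were lower. The median difference over the tested members was 0.00 and the range ran from -0.36 to 0.28. The smaller siSNRPB pool limits what could be seen: an exon could be tested against siCtrl in siSNRPA1 at 82 members and in siSNRPB at 69.

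**Figure D3:**
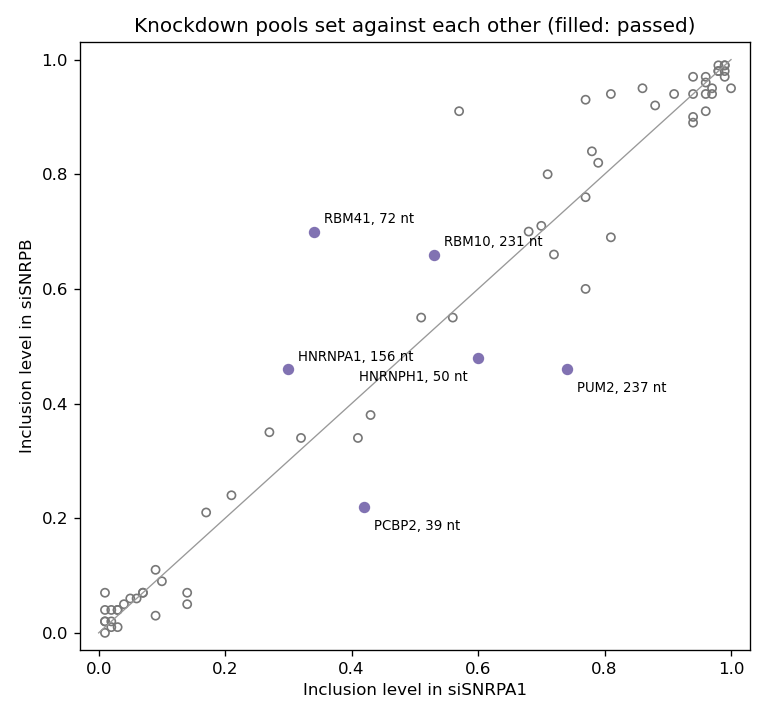
Inclusion level in siSNRPA1 (x axis, 0 to 1) and in siSNRPB (y axis, 0 to 1) of the 68 member exons tested between the knockdowns, with the line of equal levels. The 6 filled points passed; RBM41 stands farthest above the line, at 0.34 and 0.70, and PUM2 farthest below it among the filled points, at 0.74 and 0.46.

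A further list of 84 RNA-binding protein genes outside the 56 was counted with the same tests. Unlike the members, its exons were not held to the siCtrl read rule in the comparison between the knockdowns. In siSNRPA1 13 of the 101 tested exons of this list fell and 2 rose, or 14.9%, against 17.0% of all tested exons. The median difference was -0.02. In siSNRPB 10 of 77 fell and 1 rose, or 14.3%, against 21.3% of all tested exons, with a median of -0.03. Between the knockdowns 1 of 96 was lower in siSNRPA1 and 6 were higher, or 7.29%, against 14.7% of all tested exons. Against siCtrl, falls outnumbered rises in this list, in the members and in the whole series.

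The size of a change depended on the measure. In the 18 passing exons, which come from 14 genes, the inclusion level was below the share of inclusion reads for 18 in siSNRPA1, 17 in siSNRPB and 16 in siCtrl. The share leaves out reads in flanking exons and isoform length, which enter the level. HNRNPA1 is an example, with a level of 0.27 in siCtrl beside an inclusion share of 86.3% (95% Wilson interval 82.5 to 89.4%). Reads that fit neither isoform are outside the informative reads. At the passing exons their median share of an event's reads was 56.3%, 52.0% and 59.9% in siSNRPA1, siSNRPB and siCtrl. Over the series it was 56.8%, 53.5% and 58.7%. It was 83.9%, 88.9% and 84.9% at the RBM7 exon and 76.6%, 77.6% and 76.0% at the HNRNPA1 exon. With the share in place of the level, 8 member exons passed in siSNRPA1 and 11 in siSNRPB, of which 4 and 6 were among those that passed by the level. No longer past the size required were HNRNPAB, the 3 HNRNPR exons, the 93-nt exon of PCBP2, PUM2, RBM27 and RBM7 in siSNRPA1, and HNRNPA1, HNRNPAB, HNRNPK, both forms of the HNRNPR start codon exon and SYNCRIP in siSNRPB. Those that passed by the share alone were RBM10, both HNRNPD exons described above and an 83-nt exon of HNRNPLL in siSNRPA1. In siSNRPB they were the HNRNPA2B1 exon, both HNRNPD exons, the TIAL1 exon and a 168-nt exon of HNRNPC. The HNRNPLL and HNRNPC exons were named after their values were seen. A further 16 tested members had an adjusted p under 0.05 in siSNRPA1 with too small a level difference or an opposite direction, 13 lower and 3 higher in level, and 15 in siSNRPB, 12 lower, 2 higher and 1 equal.

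**Figure D4:**
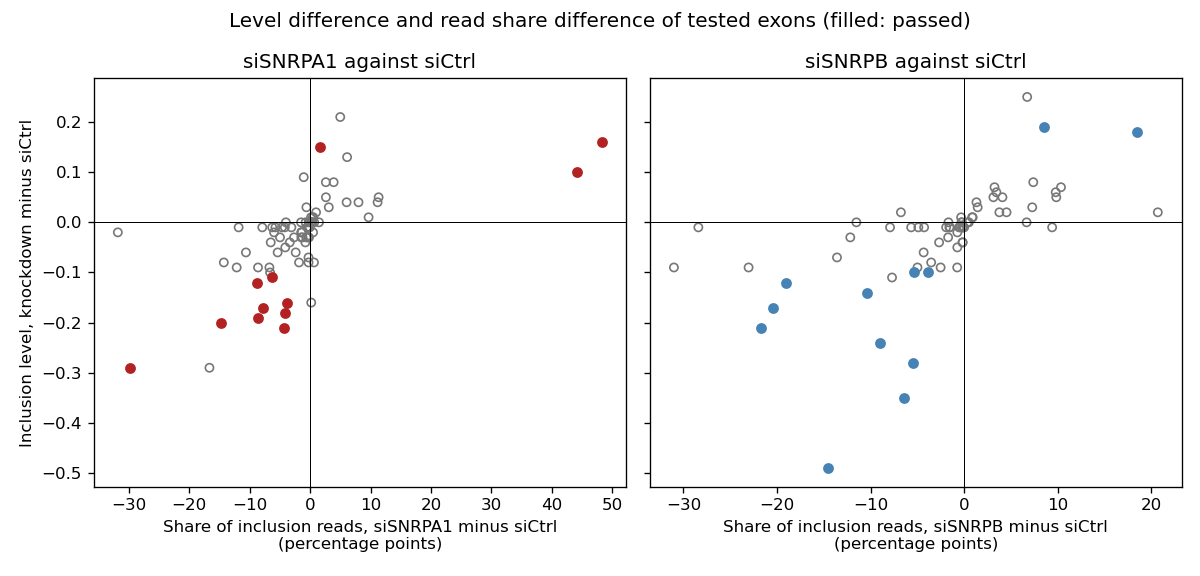
Difference in inclusion level (y axis, no unit) against the difference in the share of inclusion reads (x axis, percentage points), knockdown minus siCtrl, for the tested member exons in siSNRPA1 (left panel) and siSNRPB (right panel), filled where the exon passed. Several exons fell far more in level than in share; PUM2 in siSNRPB fell by 0.49 in level and by 14.6 percentage points in share.

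Exons with 0 exclusion reads in siCtrl were examined as a class. Such exons did not all have a high inclusion level. In siCtrl the level was 0.51 at the 165-nt exon of RBM27 and 0.07 at the 2994-nt exon of EWSR1, both in this class. Of the 169 members, 77 had 0 exclusion reads in siCtrl, and of these 10 had at least 5 exclusion reads in siSNRPA1 (13.0%) and 9 in siSNRPB (11.7%). Over the whole series this held for 7.94% and 3.57% of 10057 such exons, but members carried more reads, with a median of 356, 134 and 257 informative reads in siSNRPA1, siSNRPB and siCtrl against 123, 50 and 91 over all exons, and the part of depth in these shares was not tested. The 10 in siSNRPA1 were in HNRNPR, HNRNPC, SYNCRIP, HNRNPU, RBM5, RBM7 and RBM27, and the 9 in siSNRPB in HNRNPR, HNRNPC, SYNCRIP, RBM27, PUM2 and KHDRBS3. Forms of an exon with other ends count separately here, as they do over the series. In both knockdowns HNRNPR and HNRNPC each enter with 2 forms of an exon that share the same exclusion reads. HNRNPU, a nuclear scaffold protein, had 21 exclusion reads of 1500 informative reads at its 72-nt exon in siSNRPA1, 2 of 589 in siSNRPB and 0 of 1449 in siCtrl. PUM2 had such an exon, 109 nt long, with 4 of 370, 8 of 227 and 0 of 241. The HNRNPU and PUM2 exons were chosen as examples after their values were seen.

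As a class the member exons were a little shorter than those of the series, with a median of 110 nt against 123 nt, and their flanking introns were shorter, with medians of 1383 nt upstream and 987 nt downstream against 2170 and 2019 nt. Of the members 54.4% were placed as wholly coding, 14.2% in a 5' UTR and 10.1% in NMD transcripts, against 59.4%, 7.91% and 12.0% over the series. Each exon was given 1 place, and an NMD place only where no other coding transcript held the exon. Coding exons such as that of HNRNPK can thus be in NMD transcripts too. Lengths were a multiple of 3 in 53.3% of the coding members and in 48.5% of coding exons of the series. Among coding exons tested against siCtrl the share was 56.8% for the members and 58.4% for the series. Among the 12 wholly coding members that passed in a comparison, 11 were a multiple of 3. The share among all passing coding exons of the series was not taken, so this cannot be called a trait of these genes. Median inclusion levels were 0.66, 0.62 and 0.73 in siSNRPA1, siSNRPB and siCtrl for the members and 0.78, 0.72 and 0.83 for the series. These are descriptions, since the members were chosen by gene.

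Reads that fitted an isoform gave a rough view of how much RNA each gene contributed, over skipped-exon events alone and without replicates. In 47 of the listed genes with at least 200 such reads in siCtrl, the ratio of reads per 1000000 to siCtrl had a median of 1.01 in siSNRPA1 and 0.924 in siSNRPB, against 0.988 and 0.953 over 6335 genes. The ratio was lowest in siSNRPA1 for EWSR1, an RNA-binding protein of the FET family, at 0.659, and its siSNRPB ratio was 0.564. In siSNRPB the lowest were PCBP4 at 0.447, TAF15, also of the FET family, at 0.456, and KHSRP at 0.475, whose siSNRPA1 ratios were 0.698, 0.874 and 1.01. The highest were TIA1 in siSNRPA1, at 1.47 against 0.995 in siSNRPB, and FUBP1 in siSNRPB, at 1.74 against 0.969 in siSNRPA1. HNRNPA1 stood at 0.848 and 0.591. A ratio mixes the amount of RNA with the choice of events, and fewer cells with the transcript and less RNA per cell cannot be told apart in such samples.

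**Figure D5:**
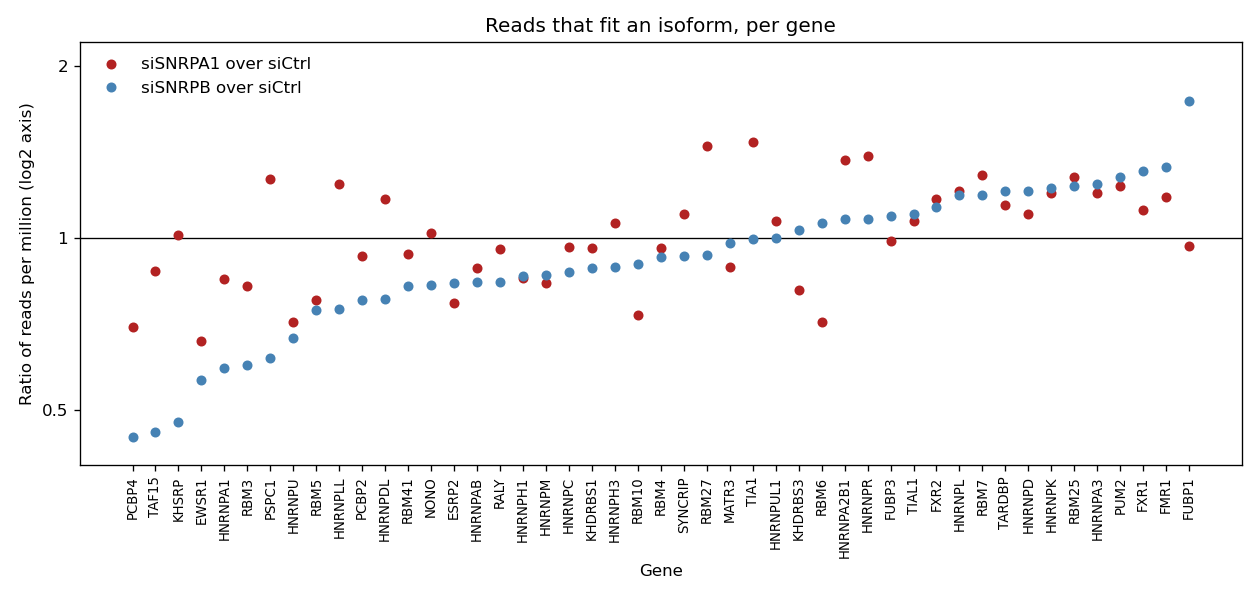
Ratio of reads that fit an isoform, per 1000000 such reads of the pool, knockdown over siCtrl (y axis, log2 scale), for the listed genes with at least 200 such reads in siCtrl (x axis, ordered by the siSNRPB ratio). The siSNRPA1 points run from 0.659 to 1.47 and the siSNRPB points from 0.447 to 1.74, on both sides of the line at 1.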

How the data were processed

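Libraries were made from total RNA with a stranded total RNA-seq kit for small inputs (labels' protocols), and the submitters' processing notes name STAR 2.7 and hg38. For each group the authors deposited 1 MISO summary of skipped exons, per the file headers, and its version, its settings, the pooling of libraries and the strand setting were not given in the sources used here. The inclusion level is a fraction that the authors gave to 2 decimals with interval bounds of unstated width, beside reads by the isoforms they fit. For each knockdown with siCtrl the authors also deposited the level difference, a score, and a Bayes factor, a ratio of evidence. Unused columns of per-sample values numbered 0.

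Genes and places came from GENCODE 29, by exact exon where possible. The passing exons of HNRNPA1, RBM27 and RBM7 also lie in another annotated gene on the same strand. Of events that share a middle exon, the one with most informative reads was kept. Tests and thresholds are those given with the results, computed with Python 3.11.15, scipy 1.17.1, numpy 2.4.6 and pandas 2.3.3 and drawn with matplotlib 3.10.9. The code was run on simulated reads in which the level equalled the read share and libraries did not vary. Those runs therefore say nothing on the authors' level or on differences between libraries. Shares have 95% Wilson intervals, and a count of 0 allows 3 reads. No molecular identifiers are described, so reads may be copies of the same molecule. Forms of an exon with other ends, and neighbouring exons, can share exclusion reads.

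The text names each member exon that passed in a comparison and the deepest exon of each role group. It also names the exons nearest the threshold of the read rule. Others are said to be chosen after their values were seen. The genes, their role groups and the list of other RNA-binding proteins were chosen with earlier results of these data known. The luminal markers PGR, EPCAM, CDH1, FOXA1, ERBB3 and KRT19 and the mesenchymal markers VIM, MSN and CAV1 had no skipped exon with a value in every pool. Whether they lack an annotated skipped exon or had too few reads was not examined. Sequences of the other passing exons are not reported here.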

Additional observations from a re-analysis of the deposited data

Results flagged for a closer look

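Exons were singled out where the 2 knockdowns differed by a test of the difference itself, which compares the reads of 2 pools without replicates. As siSNRPA1 minus siSNRPB, the inclusion level differed by 0.28 at the 237-nt exon of PUM2, by 0.20 at the 39-nt exon of PCBP2 and by 0.12 at the 50-nt exon of HNRNPH1. It differed by -0.36 at the 72-nt exon of RBM41, by -0.16 at the 156-nt exon of HNRNPA1 and by -0.13 at the 231-nt exon of RBM10. RBM41 had 23 informative reads in siSNRPB, and the RBM10 intervals of the 2 pools, 0.44 to 0.63 and 0.48 to 0.86, overlapped. The siSNRPB pool comes from 1 library and the siSNRPA1 pool from 3, so differences between libraries and between knockdowns cannot be told apart.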

How the results depend on the processing

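The numbers of member exons that passed were 12 in siSNRPA1 against siCtrl, 12 in siSNRPB against siCtrl and 6 in siSNRPA1 against siSNRPB. A level difference of at least 0.2 gave 3, 5 and 3, and one of at least 0.05 gave 18, 20 and 10. With read counts divided by 2 the numbers were 2, 6 and 3, so depth limits many of the calls: the MATR3 42-nt and PCBP2 93-nt exons were those left in siSNRPA1 (RBM41 and PUM2 had adjusted p of 0.0605 and 0.0681, exact tests), and HNRNPH1, PUM2, RBM10, RBM27, SYNCRIP and the MATR3 42-nt exon in siSNRPB. With the share of inclusion reads in place of the level they were 8, 11 and 9, of which 4, 6 and 4 were among the original exons in the same order, and the exons lost and gained against siCtrl are named with the results; between the knockdowns HNRNPA1 and RBM10 were lost. Minimums of 10 informative reads (12, 14 and 9) and 50 (10, 11 and 5) and all annotated events (12, 13 and 6) moved the numbers by at most 1.5 times. A deposited Bayes factor of at least 10 in place of the adjusted p gave 12 in siSNRPA1, without RBM27 and RBM7 and with the HNRNPC 163-nt and HNRNPH1 179-nt exons, and 10 in siSNRPB, without HNRNPK, RBM10 and RBM27 and with the HNRNPC 163-nt exon. No direction reversed, but these alternatives could hardly show a reversal. Nearly all keep the same level difference, and a pass already required the read share on the same side. No paired analysis was possible because each group is 1 pooled set of values, and for the same reason no library could be left out.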
